A study of Mus musculus with 16 samples.

Results

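Interferon response and antigen presentation genes were followed in KM cells, a mouse lung tumour line, with and without the RNA helicase eIF4A2. They were 47 genes of the 20622 in the files, chosen by name from a list of sensors, interferon receptors and kinases, transcription factors, interferon-induced effectors, MHC class I genes and brakes on the pathway. The list held 5 sensing genes, 7 receptors and kinases, 7 transcription factors, 17 effectors, 7 genes of MHC class I and 4 brakes, and all 47 symbols were matched to 1 gene identifier each. Of the 47, 44 had a row in the footprint tables.

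KM cells were derived from lung tumours of a mouse carrying *Rosa26* LSL-MYC/LSL-MYC, in which Cre from an adenovirus under the *Sftpc* promoter switched on the transgene, so every library shares these alleles. KM_4A2cr cells had been edited with a CRISPR guide to the *Eif4a2* coding sequence and pooled from 4 clones without eIF4A2 protein on western blot. KM_NTC cells carried a non-targeting guide. Both lines were selected with puromycin and left untreated. Ribosome-protected fragments (RPFs, the stretches of mRNA covered by ribosomes) and cytoplasmic total RNA were sequenced from the same lysates in 4 replicates per line, which were independent experiments on different days, giving 16 libraries. Each line is a single population, so what follows loss of eIF4A2 and what came with the choice of clones cannot be told apart.

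Cells sense viral or misplaced nucleic acid through RNA helicases such as RIG-I and MDA5, which signal through *Mavs* to switch on interferon genes. Secreted interferon binds receptor pairs on the same or nearby cells, Janus kinases pass the signal to STAT and IRF transcription factors, and these drive effectors that restrict viruses as well as the genes that load peptides on MHC class I. Socs proteins, *Usp18* and the checkpoint ligand *Cd274* act against the signal or against the T cells that would read it. Transcription factors of the pathway recognise short promoter motifs, the interferon-stimulated response element (ISRE) and the gamma-activated site (GAS).

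The total counts ran from 4512403 to 9621848 over the 8 RPF libraries and from 5350919 to 9312622 over the 8 total RNA libraries. *Eif4a2* itself had 97.7, 122, 99.9 and 389 RPF CPM (counts scaled by the library total) in KM_NTC replicates 1 to 4 and 51.0, 88.4, 74.8 and 346 CPM in KM_4A2cr, lower in 4 of 4 pairs. Its footprints differed on the log2 scale by -0.49 ± 0.15 (SE, edgeR adjusted p = 0.0941). Epithelial markers were present in every library, and 9 of 10 fibroblast markers and 7 of 8 endothelial markers stayed under 1 TPM (an mRNA abundance that allows for transcript length) in every library. Of 10 alveolar type II markers 7 stayed under 1 TPM, the defining genes *Sftpc* and *Sftpb* at 0 among them, while *Abca3* had 27.6 to 47.6 TPM and *Etv5* 6.19 to 21.4 TPM. Of 15 immune markers 13 stayed under 1 TPM in every library, the leukocyte marker *Ptprc* among them, and the macrophage marker *Adgre1* was at 0. Replicate 4 stood apart in both lines, and calls that changed without it are given beside the genes.

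The promoters of these genes differed by role in how often they held these motifs. Of the 47 genes, 42 had a promoter in the RefSeq table (GRCm38.p6), taken from 250 bases before to 50 bases after the start, and *Tap2*, *Usp18*, *Nlrc5*, *Parp14* and *Parp9* had none there. The ISRE was searched on both strands as GAAA, any 2 bases and GAAA again, and was found in 15 of the 42 (35.7%), against 3.99% of 27025 genes with a promoter. The GAS was searched as TTCNNNGAA, which reads the same on both strands, and was found in 10 of the 42 (23.8%), against 9.55% of all genes. An ISRE stood in 9 of 15 effector promoters (60.0%), in 2 of 5 sensing promoters and in 0 of the 7 receptor and kinase promoters. The windows below, each 30 bases on the strand of the gene with the motif in capitals, compare members that KM cells expressed highly (*B2m* and *Bst2*) with members that were nearly silent (*Isg15*, *Ifit1* and *Rsad2*), and show the GAS of *Socs3*. They lie at chr2:122147538-122147567 on the plus strand (*B2m*), chr8:71537577-71537606 on the minus strand (*Bst2*), chr4:156200871-156200900 on the minus strand (*Isg15*), chr19:34640794-34640823 on the plus strand (*Ifit1*), chr12:26456553-26456582 on the minus strand (*Rsad2*) and chr11:117969501-117969530 on the minus strand (*Socs3*), in GRCm38.p6.
B2m, ISRE: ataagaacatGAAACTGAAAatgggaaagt
Bst2, ISRE: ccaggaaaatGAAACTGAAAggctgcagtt
Isg15, ISRE: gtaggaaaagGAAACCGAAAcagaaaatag
Ifit1, ISRE on the opposite strand: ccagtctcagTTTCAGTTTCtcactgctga
Rsad2, ISRE on the opposite strand: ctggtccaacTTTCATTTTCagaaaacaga
Socs3, GAS: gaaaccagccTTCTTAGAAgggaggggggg

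The *B2m* and *Bst2* windows hold the same 10 letters, and *Isg15* has 3 overlapping matches, of which the middle one is shown. *Bst2* has 2 overlapping ISRE matches, of which the one nearer the start is shown, and its GAS overlaps the other. Among the 30 members with a promoter whose footprints were abundant enough to test, 8 had an ISRE (26.7%), and among the 12 that were too scarce it was 7 (58.3%), namely *Gbp2*, *Gbp3*, *Ifit1*, *Ifit3*, *Ifitm3*, *Isg15* and *Rsad2*. A match of letters is a description of the promoter and does not show binding.

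KM cells expressed the receptors and the MHC class I chains, and of the 17 interferon-induced effectors 4 averaged above 50 TPM and 11 under 1 TPM. In KM_NTC, 12 of 47 members had a mean above 50 TPM and 15 were under 1 TPM. The highest were *B2m*, the light chain of MHC class I, at 608 ± 282 TPM (SD, n = 4), and its heavy chains *H2-K1* at 567 ± 174 TPM and *H2-D1* at 309 ± 120 TPM. These 3 stood above 97.8% of all genes or more. The machinery that loads the chains was far lower, with *Tapbp* (tapasin) at 27.3 ± 17.9 TPM, the peptide transporter subunits *Tap1* at 3.20 ± 3.30 and *Tap2* at 1.14 ± 1.35 TPM, and *Nlrc5*, the transactivator of MHC class I genes, at 0.32 ± 0.18 TPM. For *Tap1* and *Tap2* the SD exceeded the mean.

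**Figure D1:**
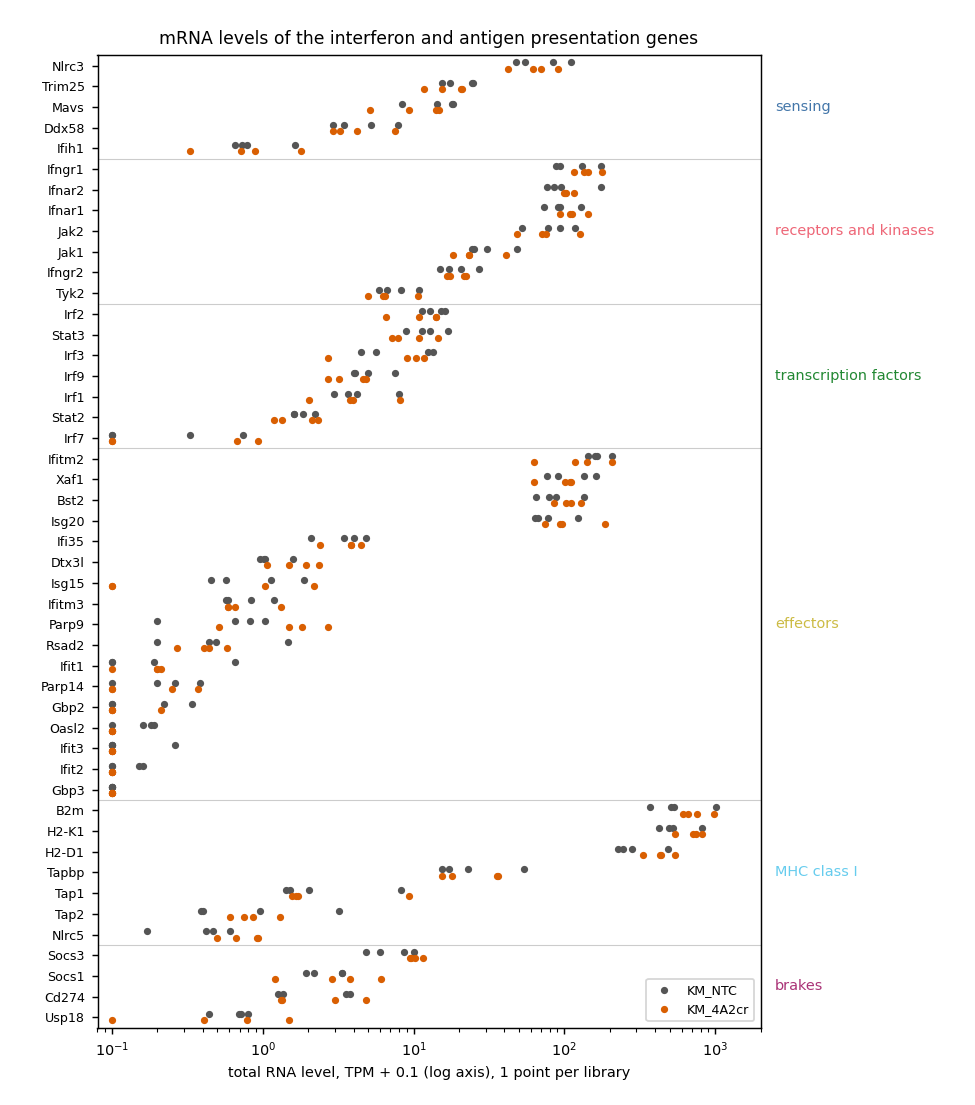
Total RNA level of each of the 47 genes in every library, as TPM plus 0.1 on a log axis, with KM_NTC in grey and KM_4A2cr in orange, grouped by role. *B2m* and *H2-K1* reach about the right-hand end, with KM_NTC means of 608 and 567 TPM, while 11 of the 17 effectors average under 1 TPM.

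The interferon receptor chains were well expressed. *Ifngr1*, the ligand-binding chain of the interferon gamma receptor, had 122 ± 40.4 TPM in KM_NTC, the type I receptor chains *Ifnar2* and *Ifnar1* had 108 ± 45.0 and 96.4 ± 23.6 TPM, and *Ifngr2* had 19.9 ± 5.35 TPM. Of the kinases, *Jak2* had 85.1 ± 27.3, *Jak1* 32.0 ± 11.2 and *Tyk2* 7.80 ± 2.15 TPM. The top 3 receptor chains and *Jak2* lay within each other's spread. The transcription factors were lower, between 13.8 ± 2.20 TPM for *Irf2* and 0.22 ± 0.30 TPM for *Irf7*, itself an interferon-induced gene.

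By mRNA level the effectors split into a small expressed set and a silent majority. *Ifitm2*, a membrane protein that blocks virus entry, had 168 ± 27.1 TPM, and *Xaf1* (116 ± 39.9), *Bst2* or tetherin (91.9 ± 30.8) and the exonuclease *Isg20* (82.6 ± 27.2) followed. Of these, *Xaf1* had few footprints, 0 to 5 in a library. The other 13 effectors had at most 3.50 TPM on average, and most of them averaged under 1 TPM. *Isg15*, the ubiquitin-like modifier that is among the first genes induced by interferon, had 10, 6, 9 and 6 RPF counts in KM_NTC and 0, 8, 0 and 2 in KM_4A2cr. *Ifit1*, *Ifit2* and *Gbp3* had no row in the RPF tables and were taken as 0, *Parp14* had at most 9 footprints in a library, *Ifit3* had 5 over all 8 libraries, *Gbp2* had 3 in KM_NTC and 4 in KM_4A2cr, and *Oasl2* had 1 in each line. Viperin (*Rsad2*) had the most footprints of this silent set in a single library, 24 in KM_NTC replicate 4. *Dtx3l*, just above this set at 1.05 TPM, had 8, 4, 3 and 1 footprints in KM_NTC and 7, 8, 7 and 5 in KM_4A2cr. In CPM the *Dtx3l* groups did not overlap, at 0.21 to 0.72 in KM_NTC and 0.85 to 1.35 in KM_4A2cr. Among the 10291 genes tested in RPFs, 2.13% had such separation. The footprints of these scarce genes were too few to test, so no change was called for them.

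Between the lines, footprints passed the test for MHC class I heavy chains, interferon receptor chains, a receptor-associated kinase and 1 sensing-group gene. Of the 47 genes, 31 had enough RPF counts to be tested, and 5 were higher in KM_4A2cr at an adjusted p under 0.1 in edgeR, namely *H2-D1*, *H2-K1*, *Ifngr1*, *Ifnar1* and *Jak2*. *Nlrc3*, of the sensing group, was lower. The background in the same fit was 6.6% of 10291 genes higher and 3.72% lower, or 10.3% in all, so 5 and 1 of 31 members are to be read against that. The median log2 fold change of the 31 was 0.27, and that of all genes -0.01. At an unadjusted p under 0.05 there were 9 higher and 3 lower, against 1358 and 1053 of the 10291 genes. With 1 replicate less the calls were unstable: without replicate 1, 2 or 3 none of the 6 passed in edgeR, where 2.27%, 1.2% and 0.31% of all genes passed. Without replicate 4 there were 11 higher and 2 lower, against 19.1% and 14.3% of all genes. Fewer cells that express a gene and less of its RNA in each cell cannot be told apart in these bulk libraries.

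*H2-D1* changed most clearly among the MHC class I genes. Its RPF level was 887, 724, 1270 and 2501 CPM in KM_NTC replicates 1 to 4 and 1639, 1260, 1834 and 3629 CPM in KM_4A2cr. Each KM_4A2cr library was above the KM_NTC library of the same replicate, though the groups overlapped because both lines were highest in replicate 4. The change on the log2 scale was 0.69 ± 0.13 (SE, edgeR adjusted p = 0.0224), with ratios between 1.44 and 1.85 in 4 of 4 pairs. It was the 1 RPF rise of the module that held at an adjusted p of 0.05.

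*H2-K1*, the other classical heavy chain, had 731, 573, 986 and 1987 CPM in KM_NTC and 1351, 883, 1447 and 2009 CPM in KM_4A2cr. The pairs of replicates 1 to 3 rose by ratios of 1.85, 1.54 and 1.47, and the pair of replicate 4 was level at 1.01. Over the 4 pairs the log2 fold change came to 0.52 ± 0.16 (SE, edgeR adjusted p = 0.0943). *H2-D1* and *H2-K1* belong to a family of near-identical genes, so reads can be divided between them and their relatives. How the footprint counting treated such reads is not given in the sources used here.

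*B2m*, which pairs with both heavy chains, did not pass. It had 298, 167, 247 and 662 RPF CPM in KM_NTC and 464, 216, 328 and 612 CPM in KM_4A2cr, higher in the first 3 pairs and lower in replicate 4. The fit gave a log2 fold change of 0.33 ± 0.15 (SE, edgeR adjusted p = 0.218), and it was 0.47 and passed without replicate 4. *Tapbp*, *Tap1* and *Tap2* had log2 fold changes of 0.34, 0.22 and 0.28 with adjusted p between 0.318 and 0.630 by edgeR. All 6 tested MHC class I genes thus lay above 0, as did 5029 of the 10291 genes, and 2 of the 6 passed. Without replicate 4, *Tap2* (0.73) and *Tapbp* (0.53) passed as well, where 19.1% of all genes passed as higher. The median of the 6 was 0.33, but by pair it was 0.86, 0.69, 0.25 and -0.05 on the log2 scale for replicates 1 to 4.

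**Figure D2:**
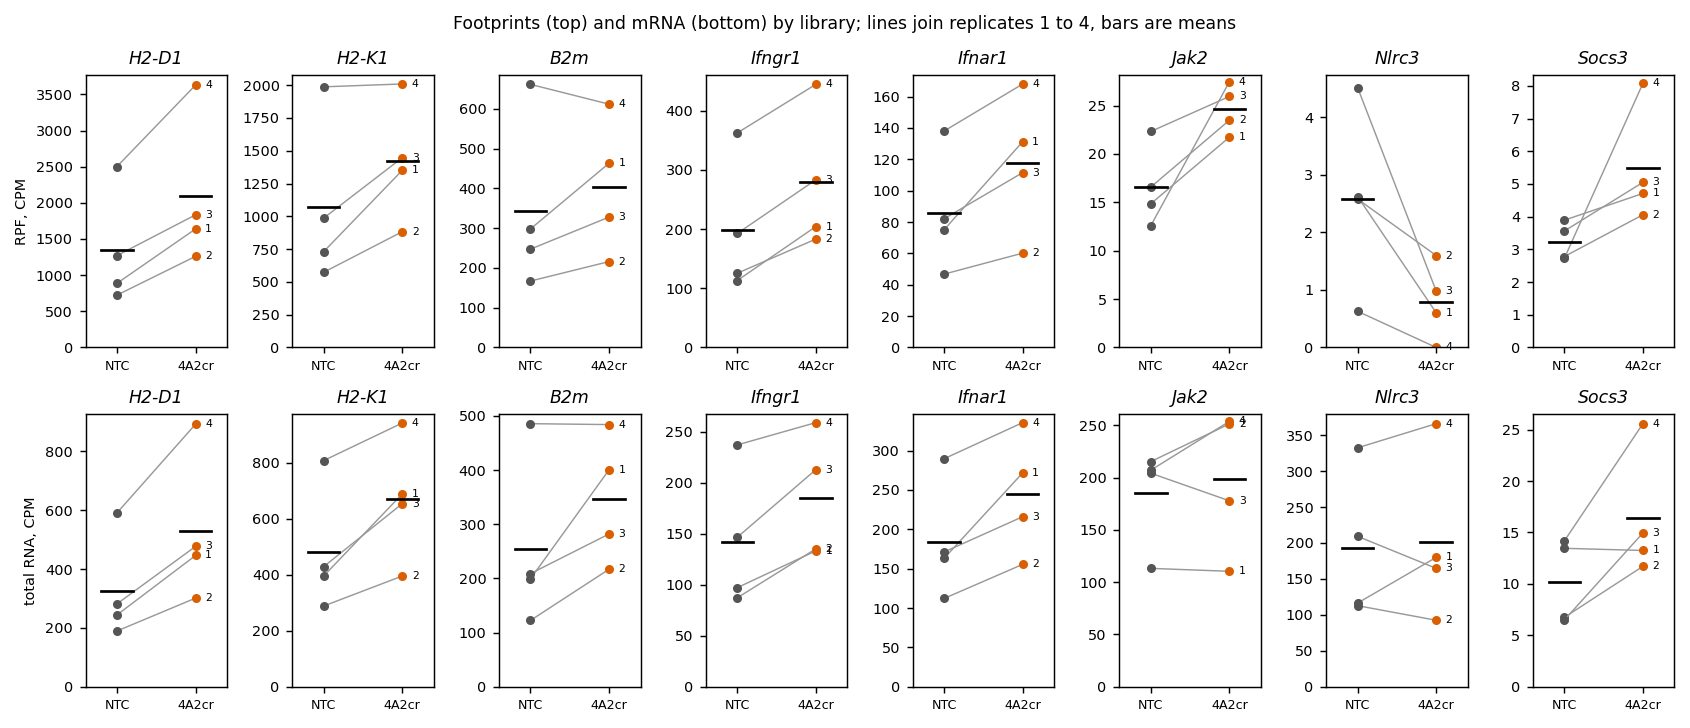
Footprints (top row, RPF CPM) and mRNA (bottom row, total RNA CPM) of 8 genes in every library, with KM_NTC in grey, KM_4A2cr in orange, lines joining libraries of the same replicate, replicate numbers at the right and black bars for the mean of 4. The RPF lines of *H2-D1*, *Ifngr1*, *Ifnar1* and *Jak2* rise in 4 of 4 replicates, those of *Nlrc3* fall in 4 of 4, and *Nlrc3* and *Jak2* mRNA goes both ways.

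The receptors and kinases held 3 of the 5 rises. *Ifngr1* had 113, 125, 193 and 363 RPF CPM in KM_NTC and 204, 183, 283 and 445 CPM in KM_4A2cr. It was higher in 4 of 4 pairs, by ratios of 1.23 to 1.81, and the groups overlapped. *Ifngr1* footprints thus rose by 0.56 ± 0.13 (SE, edgeR adjusted p = 0.0500).

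*Ifnar1*, the chain of the type I receptor that binds *Tyk2*, had 75.0, 46.8, 82.0 and 138 CPM in KM_NTC and 131, 60.2, 112 and 168 CPM in KM_4A2cr. It too was higher in 4 of 4 pairs with overlapping groups, and it rose by 0.48 ± 0.13 (SE, edgeR adjusted p = 0.0804). The partner chains did not pass, *Ifngr2* with 0.45 (edgeR adjusted p = 0.108, higher in 4 of 4 pairs) and *Ifnar2* with 0.34 (edgeR adjusted p = 0.253, higher in 3 of 4 pairs). Without replicate 4, all 4 receptor chains passed with log2 fold changes of 0.48 to 0.65, where 19.1% of all genes passed as higher. Without replicate 1, 2 or 3 none of them did.

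*Jak2*, the kinase that serves the interferon gamma receptor, had 14.9, 16.6, 22.3 and 12.6 CPM in KM_NTC and 21.7, 23.5, 26.0 and 27.5 CPM in KM_4A2cr. The lines overlapped only between KM_NTC replicate 3 and KM_4A2cr replicate 1. This was a rise of 0.57 ± 0.16 (SE, edgeR adjusted p = 0.0832). *Jak1* and *Tyk2* had -0.02 and -0.22 with adjusted p of 0.937 and 0.508 by edgeR. The 7 receptors and kinases had a median of 0.45, and 0.65, 0.36, 0.29 and 0.28 by pair.

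*Nlrc3*, a NOD-like receptor known as a damper of nucleic acid sensing, was the 1 gene called lower. It had only 29, 26, 33 and 3 footprints in KM_NTC and 5, 13, 7 and 0 in KM_4A2cr, or 2.63, 2.58, 4.52 and 0.63 CPM against 0.60, 1.60, 0.98 and 0 CPM. KM_4A2cr was lower in 4 of 4 pairs, and the low KM_NTC replicate 4 was what made the groups overlap. On the log2 scale this was -1.63 ± 0.39 (SE, edgeR adjusted p = 0.0536). The sensors *Ddx58* (RIG-I) and *Ifih1* (MDA5) had -0.19 and 0.34, and the E3 ligase *Trim25* -0.04, with adjusted p between 0.416 and 0.864 by edgeR.

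*Mavs*, the adaptor below both sensors, had a log2 fold change of -0.39 in RPFs (edgeR adjusted p = 0.171) and -0.32 in total RNA (edgeR adjusted p = 0.236). It passed as lower in both when libraries were scaled by their size alone, a scaling under which the median of all genes moved by -0.14 in RPFs and -0.16 in total RNA. *Mavs*, *B2m* and *Ifih1* lie on chromosome 2, where the median RPF log2 fold change of 833 tested genes was -0.21 and 85 were called lower and 22 higher. *Ifnar1*, *Ifnar2*, *Ifngr2*, *Nlrc3*, *Parp9*, *Parp14*, *Dtx3l* and *Socs1* lie on chromosome 16, as does *Eif4a2*. *H2-K1*, *H2-D1*, *Tap1*, *Tap2* and *Tapbp* lie on chromosome 17. The part of any of these chromosomes in the values of these genes was not tested.

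The 6 tested transcription factors had RPF log2 fold changes between -0.15 and 0.56 with a median of -0.06. Of these edgeR called 0, with 1 higher at an unadjusted p under 0.05 and 0 called by DESeq2. At that unadjusted p, 1358 of the 10291 genes were higher and 1053 lower. *Irf2*, the most abundant, had 17.3, 15.6, 9.18 and 17.8 CPM in KM_NTC and 17.5, 12.7, 10.1 and 15.6 CPM in KM_4A2cr, with 2 pairs up and 2 down. *Irf1*, which *Irf2* opposes at the same sites, had 0.56 ± 0.23 (SE, edgeR adjusted p = 0.174) and was higher in 4 of 4 pairs. *Stat2*, *Stat3*, *Irf3* and *Irf9*, the other members tested, had 0.24, -0.15, -0.15 and -0.03, and *Irf9* turned to 0.42 without replicate 4, again short of the threshold.

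Only 4 of the 17 effectors could be tested in RPFs, and edgeR and DESeq2 called 0 of them. At an unadjusted p under 0.05, 1 was higher and 1 lower, against 1358 and 1053 of the 10291 genes. *Ifitm2* had 61.2, 42.0, 67.8 and 66.7 CPM in KM_NTC and 55.4, 39.6, 28.5 and 41.7 CPM in KM_4A2cr. It was lower in 4 of 4 pairs and differed by -0.53 ± 0.20 (SE, edgeR adjusted p = 0.153), and it passed with -0.47 without replicate 4. *Ifitm2* is part of a family of near-identical genes, and its neighbour *Ifitm3* had at most 6 RPF counts in a library. *Bst2* had 0.41 (edgeR adjusted p = 0.177) and passed with 0.60 without replicate 4, *Isg20* 0.17 and *Ifi35* -0.37. Of all genes, 19.1% passed as higher and 14.3% as lower without replicate 4.

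Of the brakes, *Socs3*, which blocks Janus kinases at cytokine receptors, had 3.89, 2.78, 3.56 and 2.73 RPF CPM in KM_NTC and 4.71, 4.06, 5.05 and 8.08 CPM in KM_4A2cr. Every KM_4A2cr library lay above every KM_NTC library. Such separation was found in 2.13% of the 10291 genes, and *Socs3* was the 1 member among the 31. The log2 fold change of 0.65 (standard error 0.24) had an adjusted p of 0.153 by edgeR. *Socs1* and *Cd274* had 0.57 and 0.27 with adjusted p of 0.482 and 0.498 by edgeR. *Usp18* had 4 to 12 RPF counts per library and was not tested.

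In total RNA, 34 of the 47 genes could be tested and 4 were higher in KM_4A2cr, namely *H2-D1*, *Parp9*, *Socs3* and *Isg20*. The background was 4.35% of 10880 genes higher and 1.78% lower, or 6.13% in all. For lower calls edgeR and DESeq2 both gave 0 members. At an unadjusted p under 0.05, 1 member was lower, as were 804 of the 10880 genes. The median log2 fold change was 0.17 against 0.01 for all genes, with 25 of 34 above 0, against 5619 of the 10880 genes. Without replicate 1 only *Isg20* and *Socs3* passed, and without replicate 2 or 3 none did, where 1.91%, 1.3% and 0.577% of all genes passed. Without replicate 4, 14 were higher and 2 lower, against 17.8% and 12.0% of all genes. The 10 higher ones that the 4 pairs together did not give were *H2-K1* (0.61), *B2m* (0.75), *Tapbp* (0.36), *Nlrc5* (1.298), *Ifngr1* (0.54), *Ifnar1* (0.51), *Ifnar2* (0.36), *Bst2* (0.56), *Dtx3l* (0.66) and *Socs1* (0.67), and the 2 lower were *Jak1* (-0.26) and *Mavs* (-0.33).

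*H2-D1* mRNA had 244, 189, 282 and 591 CPM in KM_NTC and 446, 301, 477 and 892 CPM in KM_4A2cr. It was higher in 4 of 4 pairs by ratios of 1.51 to 1.83, close to those of its footprints. This mRNA rose by 0.72 ± 0.14 (SE, edgeR adjusted p = 0.0219). *H2-K1* and *B2m* mRNA had 0.52 (edgeR adjusted p = 0.105) and 0.57 (edgeR adjusted p = 0.119), and DESeq2 called both higher. All 6 tested MHC class I mRNAs lay above 0, with a median of 0.54, and 5619 of the 10880 genes lay above 0. By pair the median of the 6 was 0.83, 0.52, 0.52 and 0.34 on the log2 scale for replicates 1 to 4.

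*Parp9*, which acts with the E3 ligase *Dtx3l* in interferon signalling, was scarce, with 9, 15, 7 and 1 counts in KM_NTC and 20, 32, 14 and 5 in KM_4A2cr. In CPM these were 1.26, 1.35, 0.95 and 0.19 against 3.27, 4.07, 2.65 and 1.15, so that 3 of the 4 KM_4A2cr libraries were above every KM_NTC library. In the fit the log2 fold change was 1.55 ± 0.30 (SE, edgeR adjusted p = 0.0219). Its RPFs, 1 to 13 per library, were not tested and were higher in 2 of 4 pairs. *Dtx3l* had a total RNA log2 fold change of 0.76 (edgeR adjusted p = 0.132). Both genes had at most 40 reads in a library.

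*Socs3* mRNA had 13.5, 6.75, 6.49 and 14.2 CPM in KM_NTC and 13.3, 11.7, 15.0 and 25.6 CPM in KM_4A2cr, level in replicate 1 and higher in the other 3. Its log2 fold change was 0.69 ± 0.20 (SE, edgeR adjusted p = 0.0959), and DESeq2 did not call it. *Isg20* mRNA had 33.5, 24.7, 27.99 and 66.3 CPM in KM_NTC and 32.9, 36.8, 45.3 and 136 CPM in KM_4A2cr, again level in replicate 1. Its log2 fold change was 0.58 ± 0.17 (SE, edgeR adjusted p = 0.0984), while its footprints, at 22.99, 18.0, 17.9 and 12.6 CPM in KM_NTC and 25.0, 18.2, 23.7 and 13.7 CPM in KM_4A2cr, differed by 0.17 (edgeR adjusted p = 0.498) and were lowest in replicate 4, where its mRNA was highest.

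*Nlrc5* was the 1 tested member whose total RNA groups did not overlap, as in 1.97% of the 10880 genes. It had 2, 18, 9 and 8 counts in KM_NTC and 13, 21, 18 and 10 in KM_4A2cr, or 0.28, 1.62, 1.22 and 1.53 CPM against 2.13, 2.67, 3.41 and 2.31. The log2 fold change was 1.181 ± 0.354 (SE, edgeR adjusted p = 0.107). *Ifngr1* and *Ifnar1* both had a total RNA log2 fold change of 0.44, with adjusted p of 0.107 and 0.115 by edgeR. With all 4 pairs none of the receptors and kinases thus passed in edgeR or DESeq2. At an unadjusted p under 0.05, 2 of the 7 were higher, against 1191 of the 10880 genes. Without replicate 4, *Ifngr1*, *Ifnar1* and *Ifnar2* passed as higher and *Jak1* as lower, against 17.8% and 12.0% of all genes.

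**Figure D3:**
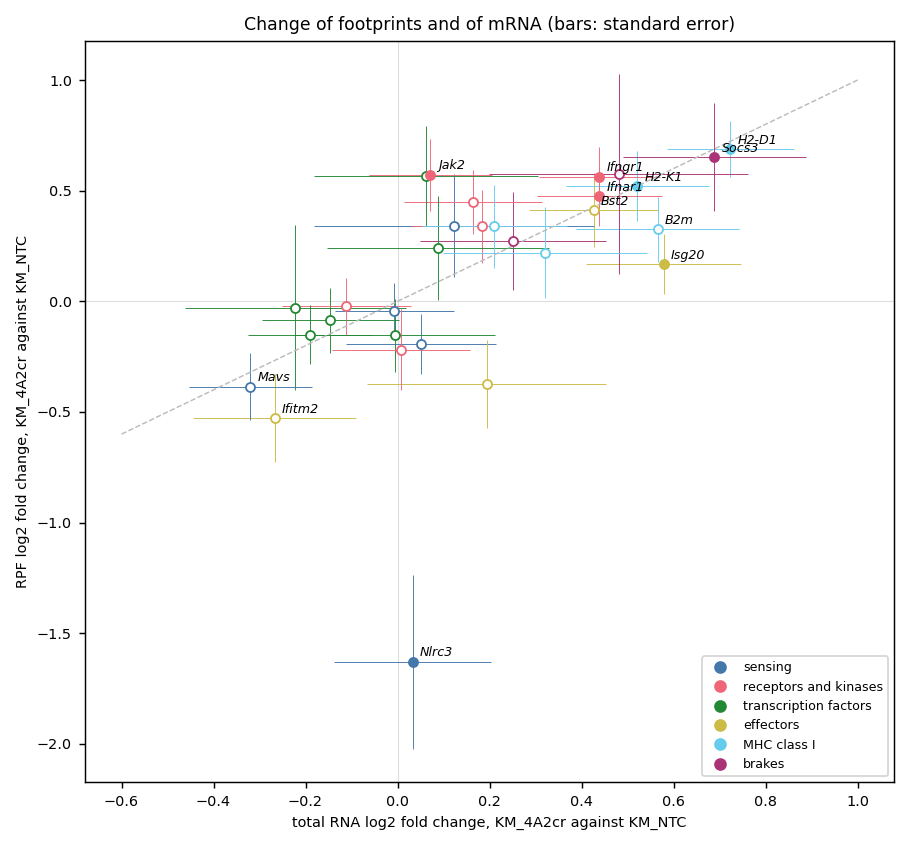
RPF log2 fold change against total RNA log2 fold change, KM_4A2cr over KM_NTC, of the members tested in both, coloured by role, with standard errors as bars, filled points for those called in any comparison and a dashed line of equality. *H2-D1* lies near the line at 0.72 and 0.69, whereas *Jak2* (0.07 and 0.57) and *Nlrc3* (0.03 and -1.63) lie off it.

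Footprints relative to mRNA of the same lysate, called translational efficiency (TE), were tested for 30 of the 47 genes. *Jak2* was higher and *Nlrc3* lower, against a background of 1.87% of 9989 genes higher and 1.04% lower, or 2.91% in all. The median TE log2 fold change of the 30 was 0.00. *Jak2* mRNA had 113, 215, 204 and 207 CPM in KM_NTC and 110, 251, 178 and 254 CPM in KM_4A2cr, up in 2 pairs and down in 2, with a log2 fold change of 0.07 (edgeR adjusted p = 0.830). Its TE log2 fold change was 0.50 ± 0.12 (SE, edgeR adjusted p = 0.0502). Without replicate 1, 2 or 3 edgeR called no member in TE, where 0.101%, 0.412% and 0.149% of all genes were called. Without replicate 4, *Ifitm2* (-0.39) and *B2m* (-0.28) were also called lower in TE, where 6.68% of all genes were called.

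*Nlrc3* mRNA was abundant, at 116, 113, 209 and 332 CPM in KM_NTC and 180, 92.5, 165 and 366 CPM in KM_4A2cr, and moved up in 2 pairs and down in 2. Against this level its few footprints gave a TE log2 fold change of -1.59 ± 0.35 (SE, edgeR adjusted p = 0.0284). DESeq2 did not call it. In KM_NTC the ratio of RPF CPM to total RNA CPM was low for *Nlrc3* (0.0134) and *Jak2* (0.0897). Strand use in the counting is not given, so reads of an overlapping gene could enter the mRNA side of both TE calls. For *H2-D1* and *H2-K1* the TE log2 fold changes were -0.04 and -0.00, with standard errors of 0.10 for each, and for *Ifngr1* and *Ifnar1* they were 0.12 and 0.04 with 0.10 and 0.09.

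The members also differed among themselves in how many footprints they had per mRNA. In KM_NTC the ratio of RPF CPM to total RNA CPM was 5.04 for *Bst2*, 4.12 for *H2-D1*, 2.80 for *Tapbp*, 2.24 for *Irf3* and 2.23 for *H2-K1*, against a median of 0.78 over 8794 genes, and these ratios stood above 90.8% to 98.9% of those genes. At the other end, *Xaf1* had 0.00728, *Nlrc3* 0.0134 and *Jak2* 0.0897, with 1.82%, 2.02% and 4.72% of genes below them. *Xaf1* had 305 to 625 mRNA counts in the KM_NTC libraries and 3 to 5 footprints. The ratio counts footprints in the coding sequence of a single isoform and mRNA reads over every isoform and untranslated region, so it is not per length, and strand use in the counting is not given in the sources used here, so reads of an overlapping gene would enter it.

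**Figure D4:**
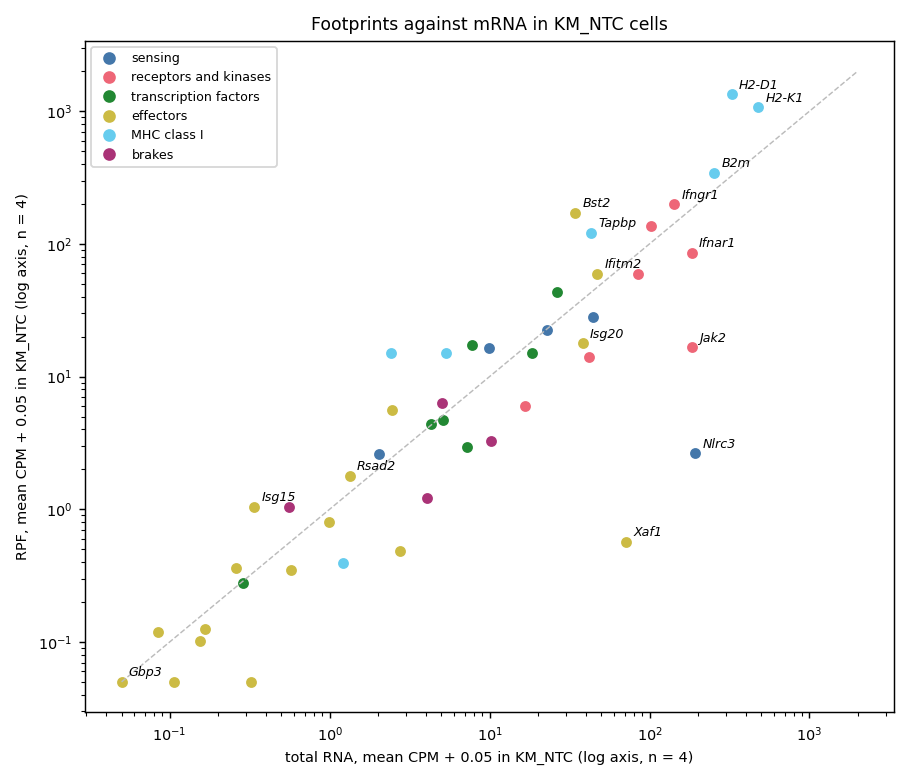
Mean RPF CPM against mean total RNA CPM in KM_NTC (n = 4), each plus 0.05 on log axes, for the 47 genes coloured by role, with a dashed line of equality. *Xaf1*, *Nlrc3* and *Jak2* lie far below the line with ratios of 0.00728, 0.0134 and 0.0897, and *H2-D1* and *Bst2* lie above it with 4.12 and 5.04.

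Most members were highest in replicate 4. Of the 31 members tested in RPFs, 18 (58.1%) were highest in replicate 4, against 33.3% of all genes, and for MHC class I it was 6 of 6. *Tap1* had 44.1 and 61.7 RPF CPM in replicate 4 of KM_NTC and KM_4A2cr and 3.67 to 7.15 CPM in the other 6 libraries. *Tap2* had 39.4 and 21.5 CPM there and 2.90 to 13.3 elsewhere. *Tapbp* had 281 and 243 CPM there and 45.5 to 132 elsewhere. The antigen-loading genes were thus high in both lines in that replicate, and the highest over the lowest replicate spanned a median of 1.51 on the log2 scale for the module and 0.90 for all genes. The immune marker *Cd68* moved with them, at 220 and 154 TPM in replicate 4 and 32.5 to 62.9 TPM elsewhere, whereas *Cd14* was lowest there and *Ptprc* stayed at 0.67 TPM or less. The summed level of the 15 immune markers ran from 61.2 to 234 TPM in KM_NTC and from 62.1 to 162 TPM in KM_4A2cr. The part of Cd68-expressing cells in the level of the MHC class I genes was not tested.

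**Figure D5:**
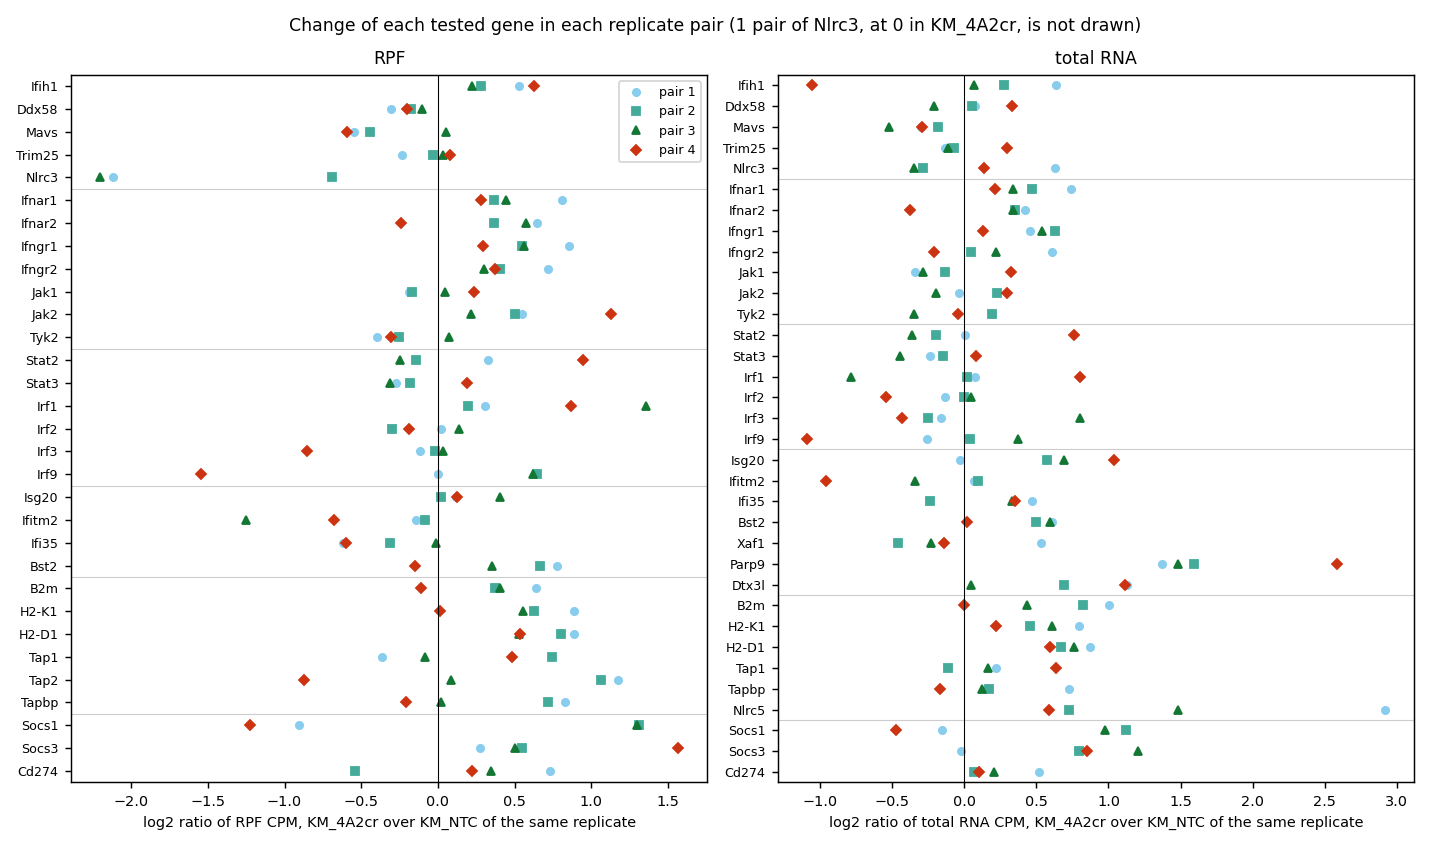
Log2 ratio of KM_4A2cr over KM_NTC in each replicate pair, for RPFs (left) and total RNA (right) of the tested members, with replicate 4 as red diamonds. For *Tapbp*, *Tap2* and *B2m* the RPF diamonds lie below 0 with the other 3 pairs above it, and *H2-D1* is above 0 in 4 of 4 pairs on both sides.

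Other genes of the same pathways, from 3 wider lists, had medians near that of all genes in 2 of 3 cases. Of 76 further interferon-induced genes 69 were in the files and 24 were testable in RPFs, with 1 higher, 2 lower and a median log2 fold change of 0.03, where 6.6% of all genes were higher and 3.72% lower. *Lgals9* (galectin-9) had 42.1, 35.2, 22.7 and 24.8 RPF CPM in KM_NTC and 18.5, 16.1, 7.86 and 6.19 CPM in KM_4A2cr. The groups did not overlap, and the fit gave -1.39 (edgeR adjusted p = 0.00505), with -1.29 in total RNA (edgeR adjusted p = 0.00540). *Samhd1*, a dNTP hydrolase that restricts viruses, had -0.83 in RPFs (edgeR adjusted p = 0.0182) and -0.75 in TE (edgeR adjusted p = 0.00334). *Tor3a* was higher in RPFs by 0.59 (edgeR adjusted p = 0.0390).

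Of 32 further sensing and signalling genes 23 were testable in RPFs, with 3 higher, 0 lower by edgeR and a median of -0.01, and 2 were lower at an unadjusted p under 0.05. Beside this list and the next, 6.6% of all genes were higher and 3.72% lower, and 1053 of 10291 were lower at that unadjusted p. The 3 higher ones here were *Stat5b* (0.94), *Stat5a* (0.82) and the interferon lambda receptor chain *Ifnlr1* (0.46), with adjusted p of 0.0856 to 0.0985 by edgeR. *Stat5a* and *Stat5b* are close paralogues whose reads could be divided between them. Of 28 further antigen presentation genes 15 were testable, with 2 higher, 1 lower and a median of 0.30. *Calr* and *Canx*, the chaperones that fold MHC class I heavy chains among many other glycoproteins, were higher by 0.59 (edgeR adjusted p = 0.0403) and 0.43 (edgeR adjusted p = 0.0934), and the immunoproteasome subunit *Psmb10* fell by 0.88 on the log2 scale (edgeR adjusted p = 0.0804).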

How the data were processed

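Footprints and cytoplasmic mRNA were sequenced from KM_NTC and KM_4A2cr lysates (n = 4 each). For RPFs the authors deposited counts per transcript over the coding sequence, after Cutadapt 1.18, BBmap alignment to the most abundant protein-coding transcript per gene (GENCODE vM27), UMI-tools 1.0.1 deduplication and selection of lengths of 28 to 33. For mRNA the authors gave RSEM 1.3.3 output after Bowtie2 2.3.5.1, with expected counts and TPM per isoform as deposited values. Here expected counts and TPM were summed per gene, and expected counts rounded. Genes were filtered with filterByExpr, scaled by TMM and tested in edgeR 4.0.16 (R 4.3.3) by the quasi-likelihood test with replicate as a block, with Benjamini-Hochberg adjustment over all tested genes and a threshold of 0.1. TE was tested as the difference between the RPF and mRNA changes in a single model with a term per lysate. CPM values use TMM-scaled totals. Both kinds were scaled separately, so a change of all mRNA or footprints leaves no trace. Same-numbered libraries deviated together (correlations of 0.584 to 0.796 in RPFs and 0.619 to 0.760 in total RNA), from which the pairing was taken. Tests were tried first on simulated counts.

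The members and lists were chosen with earlier results of these data known. Values in every library are given for members called in any comparison and for the member of each role with the highest mean TPM. Of the wider lists, at most 3 called higher and 3 called lower are named. *B2m*, *Mavs*, *Tap1*, *Tap2*, *Tapbp*, *Nlrc5*, *Isg15* and the ratios of *Xaf1* were described after their values were seen, where that rule did not already name them. Alternatives were no block, 3 other scalings, DESeq2 1.42.0, 2 other filters, a threshold of 0.05, each replicate left out and the RPF isoform alone. Chromosome names and promoters come from RefSeq GRCm38.p6, another build than that of the files. A further allele shared by all libraries is not reported here.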

Additional observations from a re-analysis of the deposited data

Results flagged for a closer look

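In 13 of 130 groups of 4 libraries of the tested members, 1 library stood far from the other 3, and 10 of the 13 were replicate 4. The cutoff flags about 1 in 20 groups of independent, normally distributed values. These groups share lysates and replicates, and the rate over all genes was not computed, so 13 of 130 cannot be set against 1 in 20. In RPFs, replicate 4 was the high library for *Tap1* in KM_NTC (44.06 CPM, the others 3.67 to 7.15) and in KM_4A2cr (61.66 CPM, the others 4.77 to 6.15), for *Tapbp* in KM_NTC (281.3 CPM, the others 45.5 to 84.0), for *Ifnar2* in KM_NTC (273.2 CPM, the others 73.1 to 103.5) and for *Irf9* in KM_NTC (6.294 CPM, the others 1.64 to 1.89). In total RNA it was the high library for *Tap1* in KM_NTC (14.56 CPM, the others 2.03 to 2.34) and in KM_4A2cr (22.59 CPM, the others 2.16 to 2.45), for *Tapbp* in KM_NTC (96.19 CPM, the others 21.1 to 33.5), for *Irf9* in KM_NTC (12.26 CPM, the others 5.41 to 5.58) and for *Isg20* in KM_4A2cr (136.0 CPM, the others 32.9 to 45.3). The other three were *Jak2* mRNA in KM_NTC replicate 1, low at 113.2 CPM (the others 204.2 to 215.3), *Irf1* mRNA in KM_NTC replicate 1, high at 8.696 CPM (the others 3.78 to 3.92), and *Tyk2* mRNA in KM_4A2cr replicate 2, high at 22.14 CPM (the others 14.2 to 15.4).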

How the results depend on the processing

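The direction of every named gene held under the alternatives wherever it was called. The counts of members called, 5 higher and 1 lower in RPFs, 4 and 0 in total RNA and 1 and 1 in TE, depended on the pairing. Without the replicate block they were 0 and 0 in each comparison, as they were for all genes. Upper-quartile factors gave 3 higher in RPFs and 2 in total RNA, where all genes had 534 and 325 higher. Scaling by library size only gave 3 higher and 3 lower in RPFs and 2 higher and 1 lower in total RNA, where all genes had 482 higher and 1137 lower in RPFs and 262 and 868 in total RNA. DESeq2 gave 0 lower in TE, where 33 of 9989 genes were lower. No filter gave 9 higher in total RNA, where 794 of 17652 genes were higher. A mean of at least 50 counts left *Nlrc3* footprints (116 counts in all) and *Parp9* mRNA (103 counts in all) untested. Among the members still tested it gave 0 lower in RPFs and TE, where all genes had 339 and 96. In total RNA it gave 1 higher, where all genes had 392. The isoform used for RPF counts gave 2 higher in total RNA, where 361 of 10403 genes were higher. An adjusted p of 0.05 left 1 higher and 0 lower in RPFs, 2 higher in total RNA and 0 higher in TE. Leaving out 1 replicate gave 0 to 11 higher and 0 to 2 lower in RPFs, 0 to 14 higher and 0 to 2 lower in total RNA, and 0 to 1 higher and 0 to 3 lower in TE. The highest values came without replicate 4, where 29.8% to 33.4% of all genes passed in total RNA and RPFs. The cause was not tested. The 16 members not tested in RPFs had at most 24 counts in a library, and the part of depth in this was not tested.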
